A study of Mus musculus with 24 samples.

Results

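*Ptprg*, the gene of the receptor tyrosine phosphatase gamma, was examined together with 9 other receptor tyrosine phosphatase genes (*Ptprd*, *Ptprk*, *Ptprm*, *Ptprn2*, *Ptprt*, *Ptprs*, *Ptprf*, *Ptpro* and *Ptprz1*) in lists of differentially 5-hydroxymethylated regions (DhMRs). A DhMR is here a window of 200 bp, listed 2 bp short, with a different level of 5-hydroxymethylcytosine (5hmC) in Wt25 and AA10 mouse ESCs. *Ptprg* was chosen by its count of windows with higher 5hmC in Wt25 cells, 106, which was the largest of any protein-coding gene, so this count is a description and was not tested. For the totals that follow here, a window belonged to a gene when its midpoint lay inside the annotated span or when the authors had assigned it to the gene. By this rule the 10 genes held 144 of the 20726 windows listed. *Ptprg* had 122, *Ptprd* 8, *Ptprs* 5, *Ptprf* 4, *Ptprk* 3, and *Ptprt* and *Ptprz1* 1 each. *Ptprm*, *Ptprn2* and *Ptpro* had 0. Later counts, densities and ranks use the midpoint alone, unless the authors' assignment is named. Windows upstream of a gene are named apart.

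Both lines are ESCs of a mixed C57BL/6J-129V background without *Tet1*, *2* and *3*, grown in 2i medium with LIF. They received Flag-tagged full-length human Tet3 by lentivirus and were selected with puromycin. Wt25 expresses wild-type Tet3, and AA10 expresses Tet3 with both cdk5 phosphorylation sites of its catalytic domain changed from serine to alanine. Tet3 oxidizes 5-methylcytosine to 5hmC, and in these cells the introduced protein is the only Tet enzyme. Each form of Tet3 is represented by 1 clonal line, so the effect of the mutation and differences between clones cannot be told apart. DNA with 5hmC was pulled down with an antibody (5hmC-DIP) from 3 samples of each line and sequenced. The lists pool the 3 samples and hold only positions and gene identifiers, 12096 windows with higher 5hmC in Wt25 and 8630 with higher 5hmC in AA10. They carry no depth, read count, fold change or *P*-value, so neither the level of a window in each sample nor its spread between samples can be given. All intervals below are 95% intervals that cover counting error only, and windows of 1 gene are neighbours, not replicates.

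Receptor tyrosine phosphatases are membrane proteins that remove phosphate from tyrosines inside the cell and bind ligands or neighbouring cells through their outer part. Many are known from the developing nervous system, where they act in axon growth and in the formation of synapses. *Ptprg* and *Ptprz1* encode a pair with a carbonic anhydrase-like outer domain that binds contactins. *Ptprd*, *Ptprs* and *Ptprf* form the LAR family, whose members organize synapses. *Ptprk*, *Ptprm* and *Ptprt* encode adhesion molecules with a MAM domain that bind their own kind on the next cell. *Ptprn2* encodes a protein of secretory granules, and *Ptpro* is known from podocytes and neurons. Most of these genes are long and start with large introns. 5hmC itself forms at methylated CpGs and is frequent in the bodies of genes.

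To show what was called along *Ptprg*, the following windows of GRCm38 are given from 5′ to 3′ on the plus strand, which is the coding strand of *Ptprg*, with CpGs in capitals. The first lies in intron 1 and is the window inside *Ptprg* nearest to its start.
Intron 1, chr14:11573203-11573400: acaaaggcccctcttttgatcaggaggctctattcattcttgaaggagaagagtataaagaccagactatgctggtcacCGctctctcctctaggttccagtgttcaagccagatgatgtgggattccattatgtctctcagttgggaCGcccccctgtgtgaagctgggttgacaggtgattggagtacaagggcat
The next window lies in intron 2 and had the most CpGs of the Wt25 windows inside the span of *Ptprg*, 6, together with 1 other window of the same intron.
Intron 2, chr14:11824603-11824800: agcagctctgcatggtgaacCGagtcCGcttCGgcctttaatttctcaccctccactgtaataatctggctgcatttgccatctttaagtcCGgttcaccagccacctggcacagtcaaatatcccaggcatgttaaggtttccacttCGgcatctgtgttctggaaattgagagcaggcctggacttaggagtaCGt
The following window was the only one in *Ptprg* with higher 5hmC in AA10, and it also held 6 CpGs.
Intron 5, chr14:12079403-12079600: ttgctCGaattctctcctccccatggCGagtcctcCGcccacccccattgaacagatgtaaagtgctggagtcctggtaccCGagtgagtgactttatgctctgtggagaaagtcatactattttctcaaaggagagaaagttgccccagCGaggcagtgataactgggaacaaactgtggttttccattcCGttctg
The last pair lies in the 3′ part of the gene. The first is the only window that touches an exon, and the second is nearest to the gene end.
Intron 12 and exon 13, chr14:12166603-12166800: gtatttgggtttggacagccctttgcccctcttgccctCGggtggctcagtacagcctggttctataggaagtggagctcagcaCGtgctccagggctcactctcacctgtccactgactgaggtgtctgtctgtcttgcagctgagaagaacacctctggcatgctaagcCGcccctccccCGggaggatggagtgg
Intron 13, chr14:12167803-12168000: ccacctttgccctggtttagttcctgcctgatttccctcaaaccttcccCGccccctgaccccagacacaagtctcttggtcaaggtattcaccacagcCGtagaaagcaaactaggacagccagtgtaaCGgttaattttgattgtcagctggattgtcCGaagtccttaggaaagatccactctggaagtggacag

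*Ptprg* (ENSMUSG00000021745) lies on the plus strand of chromosome 14 at 11553532 to 12242041 and spans 689 kb. Its span held 106 windows with higher 5hmC in Wt25 and 1 window with higher 5hmC in AA10. Of all windows in the lists, 58.4% were higher in Wt25. On chromosome 14 the lists held 498 Wt25 and 183 AA10 windows, and 21.3% of these Wt25 windows lay in *Ptprg* alone. The gene with the next largest count was *Lipo3*, with 85. Another 15 Wt25 windows upstream of the gene were assigned to *Ptprg* by the authors, which gave 121 by their assignment. Joining windows that touch left 85 Wt25 regions in the gene, and joining those within 1 kb left 69.

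All 106 Wt25 windows in *Ptprg* had their midpoint in an intron (100%, Wilson interval 96.5 to 100). Exons of the 2 annotated transcripts cover only 1.36% of the span, so 1.44 of 106 windows would fall on exons if windows were spread evenly. The 1 window that touched an exon shared 56 bp with coding exon 13. It held 4 CpGs, and the remainder lay in intron 12. The observed 0 windows on exons is thus close to what an even spread would give.

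The introns did not share the windows by length. Intron 1, of 167 kb, held 49 Wt25 windows, or 29.4 per 100 kb (exact Poisson interval 21.7 to 38.8). Intron 2, of 231 kb, held 54, or 23.3 per 100 kb (17.5 to 30.4), and these intervals overlap. Introns 1 and 2 together held 97.2% of the windows in 57.8% of the span. The other 27 introns, with 281 kb in all, held 3 windows, or 1.07 per 100 kb (0.220 to 3.12). These were 1 window each in introns 4, 12 and 13. Intron 5, of 54.0 kb, held the AA10 window and no Wt25 window.

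**Figure D1:**
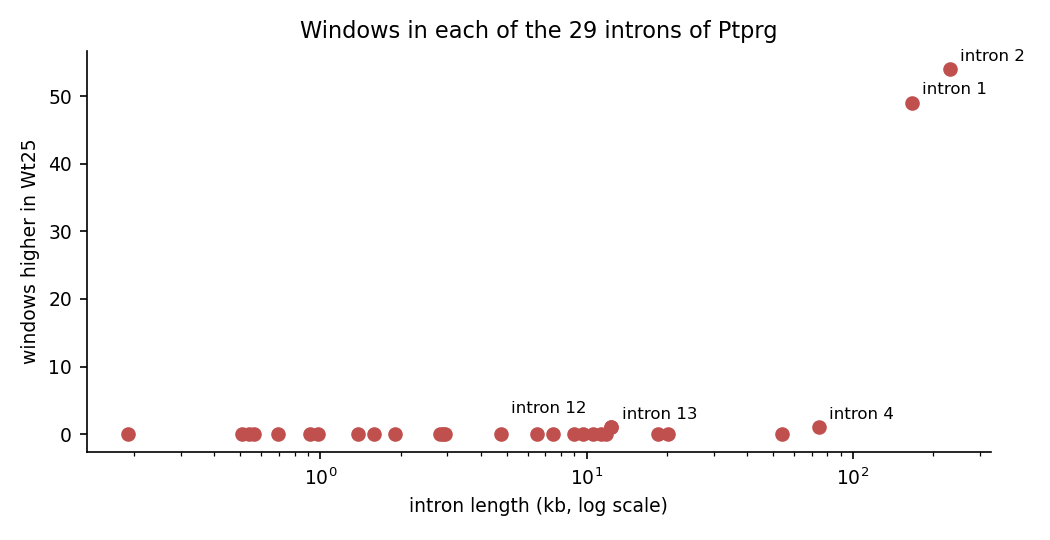
Number of windows with higher 5hmC in Wt25 (vertical axis) against intron length in kb (horizontal axis, log scale), with 1 point for each of the 29 introns of *Ptprg*. Introns 1 and 2 stand at 49 and 54 windows, introns 4, 12 and 13 at 1, and the rest at 0.

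Along the gene, the windows formed a broad 5′ domain. The first Wt25 window inside *Ptprg* was centred 19.8 kb from the start, the median 184 kb and the last 614 kb. In successive segments of 50 kb from the start, the gene held 5, 17, 26, 9, 13, 14, 9 and 10 Wt25 windows, which made 103 in the first 400 kb. The next segments held 1, 0, 0, 0, 2 and 0. The segment from 100 to 150 kb, in intron 1, was therefore the fullest, and windows became rare behind intron 2.

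**Figure D2:**
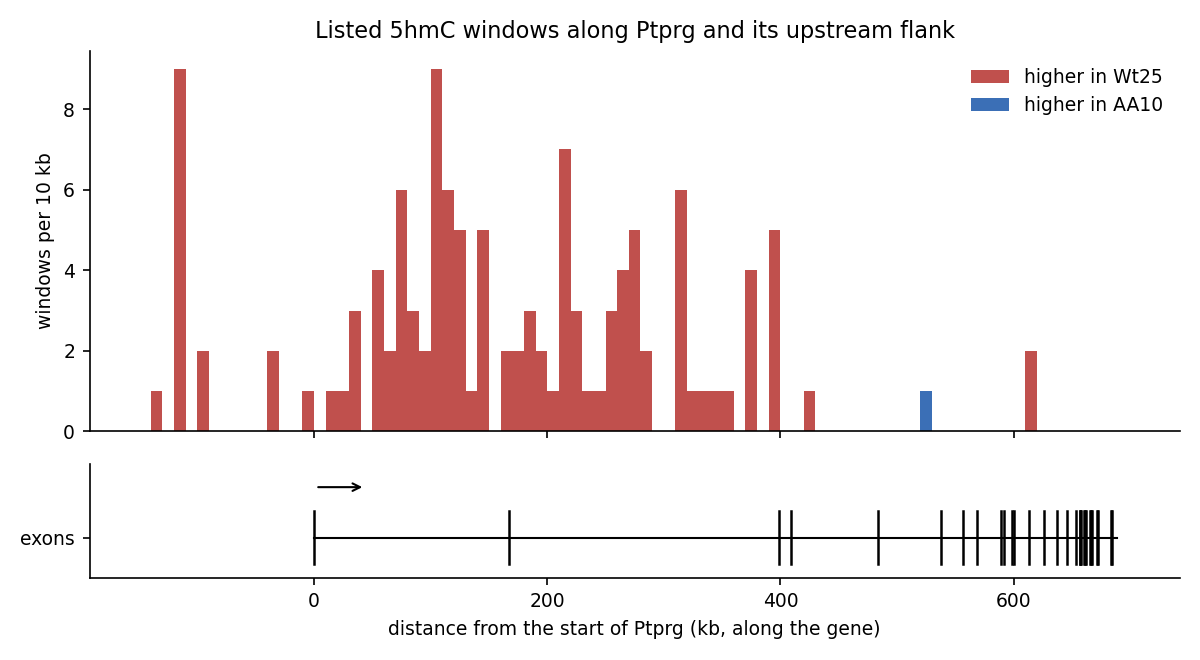
Windows per 10 kb (vertical axis) by distance from the start of *Ptprg* in kb (horizontal axis, negative values upstream), for windows higher in Wt25 (red) and in AA10 (blue). Vertical lines in the lower strip mark the 30 exons and the arrow the direction of transcription. Red bars run from upstream of the gene to 420 kb and only 2 Wt25 windows follow, at 613 and 614 kb.

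With gaps of at most 10000 bp, the Wt25 windows of *Ptprg* fell into 13 clusters. Of these, 7 had at least 5 windows and held 94 of the 106 windows. The largest had 37 windows in 72.8 kb of intron 1, the next had 20 windows in 56.6 kb and the one after that 14 windows in 34.0 kb. The median gap between neighbouring windows was 1602 bp, 93 of 105 gaps were at most 10000 bp, and 21 pairs of windows touched. With gaps of up to 50000 bp, 1 run of 107 windows covered 459 kb from 11514403 to 11973800. It began 39.1 kb before the gene and ended 420 kb inside it, at 61.0% of the span. Up to that end the gene held 24.7 Wt25 windows per 100 kb (20.2 to 30.0). The remaining 268 kb, which hold 26 of the 30 exons, had 0.746 per 100 kb (0.0903 to 2.69). Since the end of the run was set from the windows themselves, this contrast is a description.

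With gaps of up to 50000 bp, the domain began 39.1 kb before *Ptprg*, and with gaps of at most 10000 bp no upstream window joined a cluster in the gene. The 15 upstream windows began 134 kb before the gene. Of these, 12 formed a separate run from 134 to 98.1 kb upstream even with the wider gaps, and 9 lay within 8.00 kb, from 118 to 110 kb upstream. The nearest protein-coding gene upstream, *Gm3839*, was 197 kb away and held 1 Wt25 window, and the nearest downstream, *Gm49355*, was 41.9 kb away and held 0. The next Wt25 window downstream of the last one in *Ptprg* was 1117 kb away. Of 5 shorter genes annotated inside *Ptprg*, *Gm48601* held 2 of the windows, *Gm48602*, *Gm48600* and *Gm3848* held 1 each and *Gm48603* held 0. These windows can be counted for either gene.

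The Wt25 windows of *Ptprg* had few CpGs. They held 2.52 ± 1.25 CpGs each (mean ± SD over 106 windows, range 1 to 6), against 1.79 ± 1.70 in the 3335 bins of the gene that were not listed. All Wt25 windows of the list had 3.25 ± 2.52 and all AA10 windows 3.16 ± 2.36. GC content was 44.8% in the *Ptprg* windows and 43.4% in the bins of the gene not listed. Bases marked as repeats made up 16.9% of the *Ptprg* windows, 19.8% of the bins of the gene not listed and 30.8% of all Wt25 windows. Of the 106 windows, 8 (7.55%) were repeat in at least 50% of their bases. This share was 12.1% in the bins of the gene not listed and 25.4% in all Wt25 windows. The sequence CCGG, which reads the same on both strands and is the site of *MspI*, was in 12 of the 106 windows (11.3%), in 9.78% of the bins of the gene not listed and in 22.2% of all Wt25 windows.

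Every listed window of *Ptprg* held at least 1 CpG, as did nearly all listed windows. In the whole lists, 52 of 12096 Wt25 windows (0.430%) and 32 of 8630 AA10 windows (0.371%) held none. In the other 9 genes, 0 of 9647 bins without a CpG were listed as higher in Wt25. Up to the end of the run, 0 of 453 bins without a CpG were listed, which allows a share of up to 0.841%. Of bins with 1 CpG, 4.28% were listed (2.89 to 6.29), and of bins with 2 CpGs 7.42% (5.38 to 10.1). The share stayed at 7.47% for 3 CpGs, 6.85% for 4 and 7.44% for 5 or more, with overlapping intervals. Behind the run, 2 of 1341 bins were listed (0.149%, 0.0409 to 0.542). The CpG content of the bins was close in both stretches, at 1.86 ± 1.77 before and 1.73 ± 1.54 behind. Among bins with at least 3 CpGs, 45 of 615 (7.32%, 5.51 to 9.65) were listed before and 2 of 350 (0.571%, 0.157 to 2.06) behind the end of the run. Since that end was set from the windows themselves, the difference between the stretches is a description in every CpG class. Its relation to CpG content was not tested. In the other 9 genes, 14 of 29732 bins were listed as higher in Wt25 (0.0471%, 0.0281 to 0.0790).

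**Figure D3:**
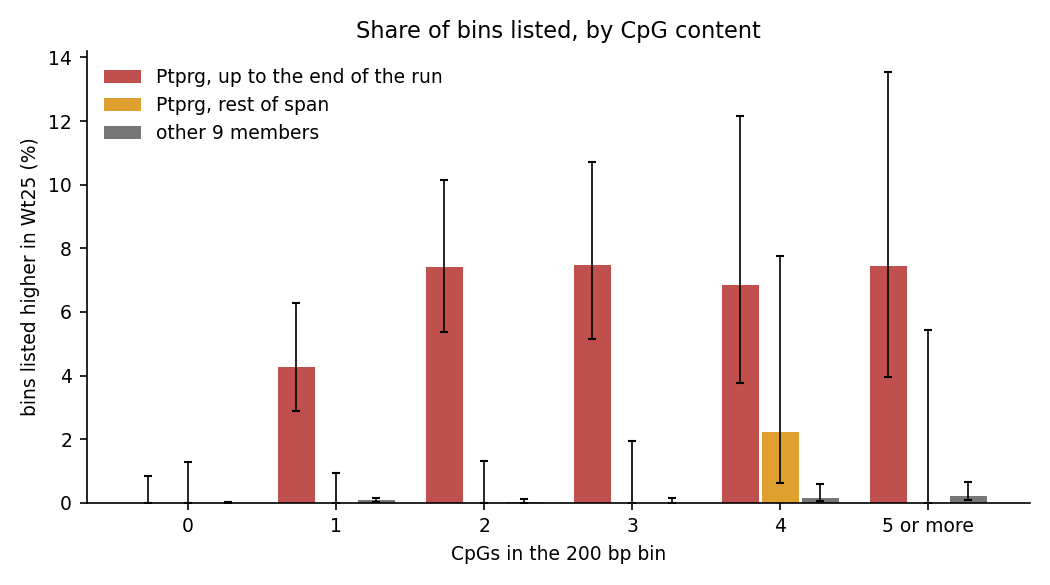
Share of 200 bp bins listed as higher in Wt25, in percent (vertical axis), by the number of CpGs in the bin (horizontal axis), with 95% Wilson intervals as error bars. In *Ptprg* up to the end of the run (red) the share is 0 without a CpG, 4.28% with 1 CpG and 6.85% to 7.47% with more. In the rest of *Ptprg* (yellow) and in the other 9 genes (grey) it is below this in every class with a CpG. The end of the run was set from the listed windows, so the contrast within *Ptprg* is a description.

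Most *Ptprg* windows are unique in the genome. Of the 106, 89 (84.0%) consisted of 32-mers that each occur once on the chromosomes of GRCm38, and only 1 had under 50% of such 32-mers. Of all Wt25 windows 64.2% were wholly single-copy, and of all AA10 windows 59.8%. Of the 15 windows upstream of *Ptprg*, 11 were wholly single-copy.

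The other receptor phosphatases held far fewer windows for their length. Together the 9 genes span 5947 kb and held 14 Wt25 windows, or 0.235 per 100 kb (0.129 to 0.395), against 15.4 per 100 kb (12.6 to 18.6) in *Ptprg*. They held 3 AA10 windows, or 0.0504 per 100 kb (0.0104 to 0.147), against 0.145 (0.00368 to 0.809) in *Ptprg*. Over all protein-coding genes of at least 100 kb, the density was 0.452 Wt25 and 0.259 AA10 windows per 100 kb. At least 1 Wt25 window was found in 6 of the 10 members. The background was 13.3% of all protein-coding genes and 35.0% of those of at least 100 kb. At least 1 AA10 window was found in 3 of the 10, with a background of 9.98% and 30.1%. Since the members are long and *Ptprg* was chosen by its count, nothing is read from these shares. Per 1000 CpGs of the span, *Ptprg* held 16.7 Wt25 windows and the other 9 genes 0.323.

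**Figure D4:**
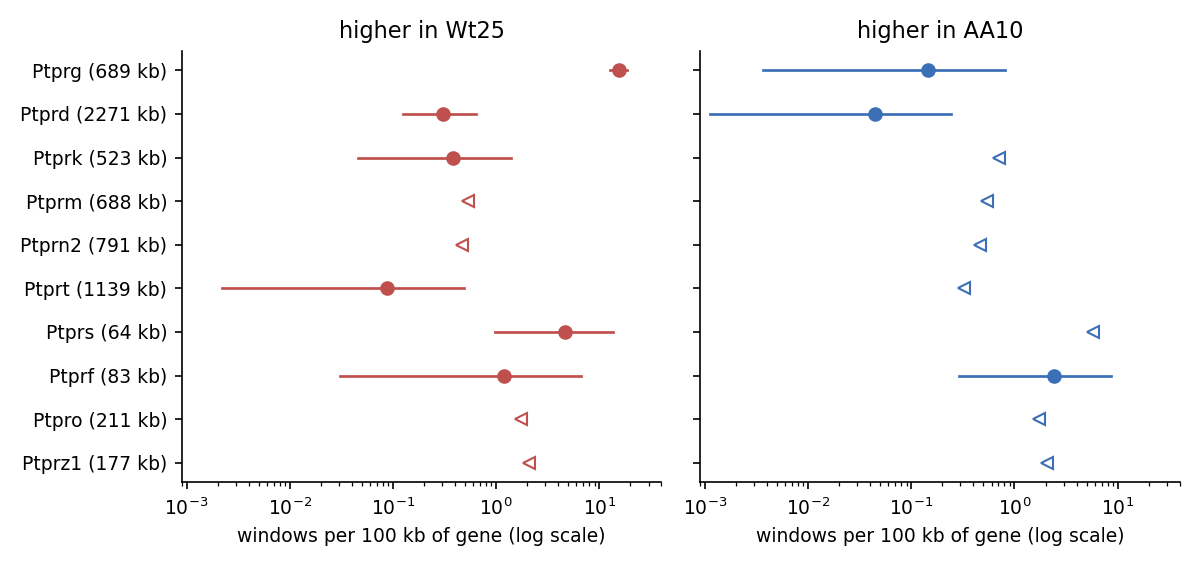
Windows per 100 kb of gene span (horizontal axis, log scale) for each of the 10 genes, higher in Wt25 (left, red) and higher in AA10 (right, blue), with 95% exact Poisson intervals as lines. Open triangles mark the upper limit for genes with 0 windows. *Ptprg*, chosen by its Wt25 count, stands at 15.4 for Wt25 and *Ptprs*, with 3 windows, at 4.68.

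*Ptprz1*, the closest relative of *Ptprg*, spans 177 kb of chromosome 6 and held 0 windows of either list, which allows up to 2.08 per 100 kb. The authors assigned to it 1 Wt25 window that lies 215 kb upstream. Only 27.5% of the 32-mers of that window are single-copy. On chromosome 6 the lists held 136 Wt25 and 1000 AA10 windows, a balance opposite to that of chromosome 14. *Ptpro* lies on the same chromosome and held 0 in 211 kb, which allows up to 1.75 per 100 kb.

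In the LAR family, *Ptprs* had the most Wt25 windows per 100 kb of the 3 genes, although its interval overlaps that of *Ptprf*. It spans only 64.1 kb of chromosome 17 and held 3 Wt25 windows and 0 AA10 windows, or 4.68 Wt25 windows per 100 kb (0.966 to 13.7). Per 1000 CpGs of the span it held 1.98 Wt25 windows, against 0.632 in *Ptprf* and 0.608 in *Ptprd*. The Wt25 windows of *Ptprs* lay in introns 1, 6 and 28 and held 6, 6 and 4 CpGs. Of these 3, only the window in intron 1 was assigned to *Ptprs* by the authors. A pair of touching Wt25 windows lay 2.22 and 2.42 kb upstream of the gene. All 3 windows inside *Ptprs* were wholly single-copy, but neither window of the upstream pair was. The window in intron 6 shared 53 bp with coding exon 7. It is given because it was the only window of the other 9 genes that touched coding sequence. It is printed on the plus strand, while *Ptprs* is on the minus strand.
*Ptprs*, chr17:56438003-56438200: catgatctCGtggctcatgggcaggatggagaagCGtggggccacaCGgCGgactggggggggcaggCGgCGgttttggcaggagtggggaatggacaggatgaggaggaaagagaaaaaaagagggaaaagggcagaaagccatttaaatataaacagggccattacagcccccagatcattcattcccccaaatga

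*Ptprf*, of 83.2 kb on chromosome 4, was the only member with more AA10 than Wt25 windows inside its span. It held 2 AA10 windows, in introns 5 and 7, and 1 Wt25 window, in intron 6, between them. Of the 32-mers of the AA10 window in intron 7, 41.3% were single-copy. A further Wt25 window with 8 CpGs lay 12.5 kb upstream. With 1 window against 2 inside the span, and 1 of each list by the authors' assignment, no direction can be given for this gene.

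*Ptprd*, the longest member with 2271 kb, held 7 Wt25 windows, or 0.308 per 100 kb (0.124 to 0.635). All lay in 1 stretch between 1283 and 1411 kb from the gene start, outside its reference coding transcript. Of the 7, 6 formed 3 touching pairs, and 6 held a single CpG. None was wholly single-copy, although the median share of single-copy 32-mers was 96.4%. The lowest shares were 73.1% and 79.6%, and a further window held a 32-mer with 817425 copies. The only AA10 window of *Ptprd* lay in its last exon, exon 36, and was the only window of the 10 genes with its midpoint in an exon. It did not touch coding sequence.

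Among the MAM-domain genes, *Ptprk* (523 kb) held 2 Wt25 windows, in introns 1 and 7, and another lay 66.3 kb upstream. *Ptprt* (1139 kb) held 1, in intron 1, with 5 CpGs. *Ptprm* held 0 windows of either list, although its span of 688 kb is nearly that of *Ptprg*, which allows up to 0.537 per 100 kb. *Ptprn2*, with 791 kb, also held 0, which allows up to 0.466. The Wt25 intervals of *Ptprd*, *Ptprk*, *Ptprm*, *Ptprn2* and *Ptprt* thus overlap each other.

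Most of the other 9 genes also start with large introns, although introns 1 and 2 together cover only 13.6 kb in *Ptprf* and 21.1 kb in *Ptprs*. Introns 1 and 2 of the reference transcripts of the 9 genes add up to 1510 kb and held 3 Wt25 windows, or 0.199 per 100 kb (0.0410 to 0.581). Their later introns, 2610 kb in all, held 4, or 0.153 per 100 kb (0.0418 to 0.392). The 7 Wt25 windows of *Ptprd* lie outside its reference transcript and are in neither count. That transcript covers only the 3′ part of the annotated span of *Ptprd*. The stretch before it, in which these windows lie, is in neither length. For *Ptprd*, introns 1 and 2 are therefore not those at the gene start, and the comparison leaves out the 5′ part of this gene. In *Ptprt* introns 1 and 2 cover 382 kb, close to the 398 kb of *Ptprg*, and held 1 window against 103.

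Of 11 further receptor phosphatase genes, 4 held a Wt25 window and 3 an AA10 window, with 8 Wt25 and 5 AA10 windows in all. The background was 13.3% and 9.98% of all protein-coding genes, and 35.0% and 30.1% of those of at least 100 kb. *Ptprb*, the vascular endothelial phosphatase gene, held 5 Wt25 windows in 114 kb, or 4.39 per 100 kb. By the authors' assignment it had only 1. *Ptpra* held 1 window of each list, *Ptprn* 1 Wt25 window in 17.5 kb (5.72 per 100 kb), *Ptprq* 1 Wt25 window, *Ptprj* 3 AA10 windows and *Ptprh* 1 AA10 window. The other 5 held 0 inside their spans. By the authors' assignment, *Ptpru* had 1 Wt25 window, and *Ptprq* had 1 Wt25 and 2 AA10 windows. Of 28 genes for ligands and intracellular partners of these phosphatases (contactins, Slitrk proteins, liprins and others), 3 held a Wt25 window and 4 an AA10 window, with 4 windows of each list and none with as many as 3. The background was 13.3% and 9.98% of all protein-coding genes. Some partners span at least 100 kb, and for such genes it was 35.0% and 30.1%. Nothing is read from these counts. The median density was 0 in both lists of genes, as over all protein-coding genes.

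When gene length was taken into account, *Ptprg* was no longer first. Among the 2492 protein-coding genes of at least 100 kb it ranked 8 by Wt25 windows per 100 kb, above 99.7% of them. Among the 998 of at least 200 kb it ranked 2. The 5 protein-coding genes with most Wt25 windows were *Ptprg*, *Lipo3* (85), *Zfp934* (83), *Sae1* (79) and *Zfp935* (75), and the spans of *Zfp934* and *Zfp935* overlap. Of the long genes with at least 90% of their windows in the Wt25 list, the densest were *Zfp935* (71.6 per 100 kb), *Lipo3* (41.1), *Sez6l* (24.0), *Sipa1l3* (21.2) and *Ncor1* (19.0).

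**Figure D5:**
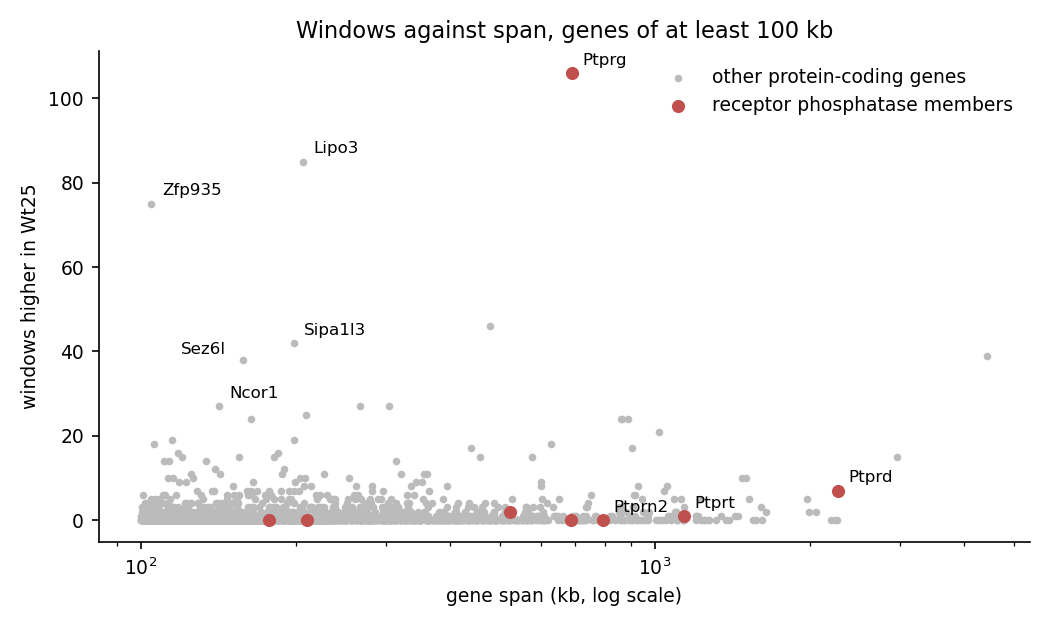
Windows with higher 5hmC in Wt25 (vertical axis) against gene span in kb (horizontal axis, log scale) for the 2492 protein-coding genes of at least 100 kb. The 8 members in this range are red and other genes grey, and named genes carry their symbol. *Ptprg* lies above all at 106 windows, and the other 7 members lie between 0 and 7.

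The share of windows with wholly single-copy sequence varied among these genes. In *Lipo3*, a gene of a lipase cluster, 1 of 85 windows was wholly single-copy, and in the zinc finger genes *Zfp934* and *Zfp935* 0 of 83 and 0 of 75. In *Sez6l*, which encodes a neuronal membrane protein, it was 35 of 38, in *Sipa1l3*, a gene of the Rap GTPase-activating family, 34 of 42, in *Sae1*, a subunit of the SUMO-activating enzyme, 58 of 79, and in *Ncor1*, a nuclear receptor corepressor, 10 of 27. With wholly single-copy windows alone, an alternative added after the data were seen, *Ptprg* kept 89 windows and ranked 3 by density. In *Sez6l* the windows reached from end to end (98.8% of the span from first to last), in *Sipa1l3* over 90.5% and in *Ncor1* over 75.0%. In *Ptprg* they reached over 86.4%, with the 3′ part nearly empty.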

How the data were processed

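The submitters made 5hmC-DIP libraries from 3 samples each of Wt25 and AA10 ESCs. According to the methods, uniquely mapped reads (STAR, GRCm38) without duplicates (Picard) were used. MEDIPS tested them between the lines, 1 bin of 200 bp at a time, at *P* under 0.05. Bins also needed a minimal read count, whose value is not given, and a fold change of at least 1. A bin that is not listed may therefore have had too few reads. The methods also state that bins on IgG-DIP peaks, tandem repeats or sequence of low complexity were then dropped. HOMER supplied the gene of each bin. Whether tandem repeats remain in the lists was not tested. A listed window inside *Ptprd* and another upstream of *Ptprs* each held a short sequence with 817425 copies in the genome. Tool versions were not given in the sources used here. The deposited files hold only start, end and gene identifier of each bin, which are positions and no counts or scores, so no test between samples was run and depth behind a window is unknown. RNA-seq, H3K27ac and input libraries were not analysed here.

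Genes were taken from GENCODE vM21 basic and sequence with repeat marks from RefSeq's GRCm38 assembly, and positions are counted from 1. Windows were assigned by midpoint, except where the authors' assignment is named. Densities carry 95% exact Poisson and shares 95% Wilson intervals. All 32-mers were counted on both strands of the chromosomes. Functions gave the known answers on simulated data. The computations used pysam 0.24.0, numba 0.67.0, matplotlib 3.10.9, scipy 1.17.1, numpy 2.4.6 and pandas 2.3.3 under Python 3.11.15. The members, gene lists and settings were chosen with earlier results of these data known. Named were the 10 members, further receptor phosphatases with a window, partner genes with at least 3, the neighbours of *Ptprg*, the 5 protein-coding genes with most Wt25 windows and the 5 densest long genes with at least 90% of windows in Wt25. Windows printed were those of *Ptprg* that touch an exon, hold most CpGs, lie nearest to the start or end or are higher in AA10. The window of another member in coding sequence or a promoter was also printed. The sequence of 1 window picked by this rule is not reported here. Alternatives were other gene spans, joined windows, windows outside repeats or with single-copy sequence, and other units of density.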

Additional observations from a re-analysis of the deposited data

How the results depend on the processing

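The lists give no value per sample, so no replicate could be left out. No paired analysis was possible because the lists pool the replicates and no test was run. Of 45 alternative values of the main results, 35 stayed close to the reported value and 10 moved. Joining windows within 1 kb lowered the Wt25 count of *Ptprg* from 106 to 69 and its density to 10.02 per 100 kb. Per 1000 CpGs the densities were 16.7 in *Ptprg* and 0.323 in the other 9 genes, which is another unit. Without *Ptprd*, an alternative added after the data were seen, the other genes held 7 Wt25 windows instead of 14, and with wholly single-copy windows, added likewise, 6. The rank of *Ptprg* by density, 8, became 5 with windows under 50% repeat, 2 among genes of at least 200 kb and 3 with single-copy windows, and 11 with windows joined within 1 kb. The longest run grew from 72.8 kb to 459 kb when gaps of up to 50000 bp were allowed, so its extent depends on the gap chosen. Of 108 values for single members other than *Ptprg*, 6 moved, each by at most 3 windows.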
